A study of Mus musculus with 68 samples.

Results

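The endoplasmic reticulum (ER) Hsp70 chaperones and their co-factors were followed in mouse embryonic fibroblasts (MEFs) treated with tunicamycin (TM). The group was set by name and not by a cut on measured values, but with earlier results of these data known. It holds 10 genes: Hspa5, Hsp90b1, Hyou1, Dnajb9, Dnajb11, Dnajc3, Sdf2l1, Sil1, Manf and Creld2. All 10 were listed both among the 13197 genes of the founder tables and among the 12803 genes of the F1 tables. The founder set holds 40 libraries from the 8 inbred founder strains of the Collaborative Cross: 129S1Sv/ImJ (129), A/J (A), C57BL/6J (B6), CAST/EiJ (CAST), NOD/ShiLtJ (NOD), NZO/H1LtJ (NZO), PWK/PhJ (PWK) and WSB/EiJ (WSB). The F1 set holds 28 libraries from 5 crosses of a B6 mother with a 129, CAST, NOD, NZO or WSB father (x129, xCAST, xNOD, xNZO and xWSB). Cells received TM at 2 ug/ml for 4 h, and controls received 0.1% DMSO, with 2 or 3 libraries for each genotype and treatment: 3 controls and 3 TM libraries in A, PWK, x129, xNZO and xWSB, 2 and 2 in B6 and CAST, 2 and 3 in 129, NOD, NZO, WSB and xCAST, and 3 and 2 in xNOD. Outlying libraries had been removed by the authors, so the spread is that of the libraries kept. The MEFs of a genotype were a pool from several female embryos of 1 litter, so that its libraries are parallel wells of 1 cell stock, and p-values measure the spread between such wells and not between litters.

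TM blocks N-linked glycosylation, and the unfolded proteins that follow set off the unfolded protein response (UPR). Hspa5 (BiP) is the Hsp70 of the ER lumen: it binds unfolded segments in a cycle of ATP binding and hydrolysis. Proteins with a J domain (Dnajb9, Dnajb11 and Dnajc3 here) start the hydrolysis, and nucleotide exchange factors (Sil1 and the large Hsp70 relative Hyou1) reset the cycle. Sdf2l1 works with the J domain proteins, Manf binds Hspa5, Hsp90b1 (GRP94) is the Hsp90 of the same compartment, and Creld2 is an ER protein known as an early target of ER stress. The ATF6 branch of the UPR acts through the ER stress response element (ERSE), in which CCAAT and CCACG lie 9 bases apart, and the IRE1 branch acts through the transcription factor Xbp1.

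The stretches of promoter that hold this element are shown here, since they are what some members share in sequence and others do not. RefSeq promoters (GRCm38.p6, 250 bases before to 50 bases after each start) were matched by symbol for 7 members, all but Hyou1, Manf and Sil1. An exact ERSE on either strand was found in 4 of the 7, Hspa5, Hsp90b1 (with 2), Dnajc3 and Creld2, and in 0.119% of the 32851 promoters searched. Capitals mark CCAAT and CCACG, or ATTGG and CGTGG where the element lies on the other strand, and each sequence is read 5′ to 3′ on the strand of its gene.
Hspa5, chr2:34772020-34772048, plus strand: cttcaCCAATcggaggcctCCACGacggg
Hsp90b1 (distal), chr10:86705633-86705661, minus strand: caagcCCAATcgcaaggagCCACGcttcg
Hsp90b1 (proximal), chr10:86705528-86705556, minus strand: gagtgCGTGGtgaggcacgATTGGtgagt
Dnajc3, chr14:118937822-118937850, plus strand: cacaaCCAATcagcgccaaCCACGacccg
Creld2, chr15:88819515-88819543, plus strand: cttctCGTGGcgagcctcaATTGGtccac
These stretches end 42, 189, 84, 82 and 103 bases before the RefSeq start of transcription, in that order. The Hspa5 gene of GENCODE M21 begins at base 34771970, further up, so that its stretch lies inside that gene model. ERSE-II (ATTGG, 1 base, CCACG, which shares CCACG and, read on the other strand, CCAAT with ERSE) was found in Dnajb11, from 7 to 17 bases after its start, and in 0.0365% of all promoters. The Xbp1 core TGACGTGG was found in 0 of the 7 and in 0.676% of all, and the Atf4 core TTGCATCA in 0 of the 7 and in 0.895% of all. The windows of Sdf2l1 and Dnajb9 held none of the 4 motifs. The 10 genes lie on 8 chromosomes, with Dnajb11 (chr16:22857845-22879634) and Sdf2l1 (chr16:17130138-17132383), and Hyou1 (chr9:44379490-44392369) and Manf (chr9:106838312-106891979), on the same chromosomes (GRCm38).

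Founder libraries held between 7091923 and 21530282 reads on genes, and F1 libraries between 6442976 and 29528457 (66 of 68 libraries). Values are CPM, the reads on a gene scaled to a common library size by TMM within each set, and not divided by gene length, so a level is compared between genotypes of 1 set and not between genes or sets. All 10 fibroblast markers were listed, and they summed to between 20149.6 and 55105 in founder controls and between 17132 and 48984 with TM. The 8 listed myeloid markers summed to at most 64.6, the 5 endothelial markers to at most 19.9 and the 3 listed epithelial markers to at most 78.3 in any founder library, and their part in the changes below was not tested. In bulk RNA, fewer cells of a type and less RNA per cell cannot be told apart. There were 2 libraries that stood apart from their groups in the members. A control replicate 1 had 1587 for Hspa5 against 861 and 836 in the other 2 A controls, and 151 for Creld2 against 56.8 and 58.1. NZO TM replicate 3 had 8748 for Hspa5 against 6189 and 5711 in the other 2. Results that rest on these libraries are given with and without them.

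Of the 10 members, 9 rose with TM and Sil1 did not pass the test. Over the 8 founder strains in 1 fit (limma, Benjamini-Hochberg adjusted p under 0.01 and at least 1.5 fold), the mean changes of the 9 ran from 1.89 fold for Dnajb11 to 8.87 fold for Sdf2l1, where 6.04% of all genes tested were called induced. Over the 5 F1 crosses the same 9 members were called, from 1.99 fold for Dnajb11 to 9.99 fold for Sdf2l1, against 4.95% of all genes. The groups did not overlap in any of the 72 combinations of a founder strain with 1 of these 9 members. They did not overlap in any of the 45 combinations with a cross either. In all of these each TM library was above each control library of its genotype. The share of all genes that separate in this way is not given, and libraries were kept for clustering by treatment. The separation is therefore a description and not a test. The changes fell into a high group, with Sdf2l1, Dnajb9, Hspa5 and Creld2 at 6.23 fold or more, and a lower group, with Hsp90b1, Hyou1, Manf and Dnajc3 at 2.87 to 3.48 fold and Dnajb11 at 1.89 fold. Together the 10 genes took between 0.228% and 0.384% of the signal of a founder control library (median 0.252%) and between 1.03% and 1.54% with TM (median 1.25%). The highest control in that range was A control replicate 1.

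**Figure D1:**
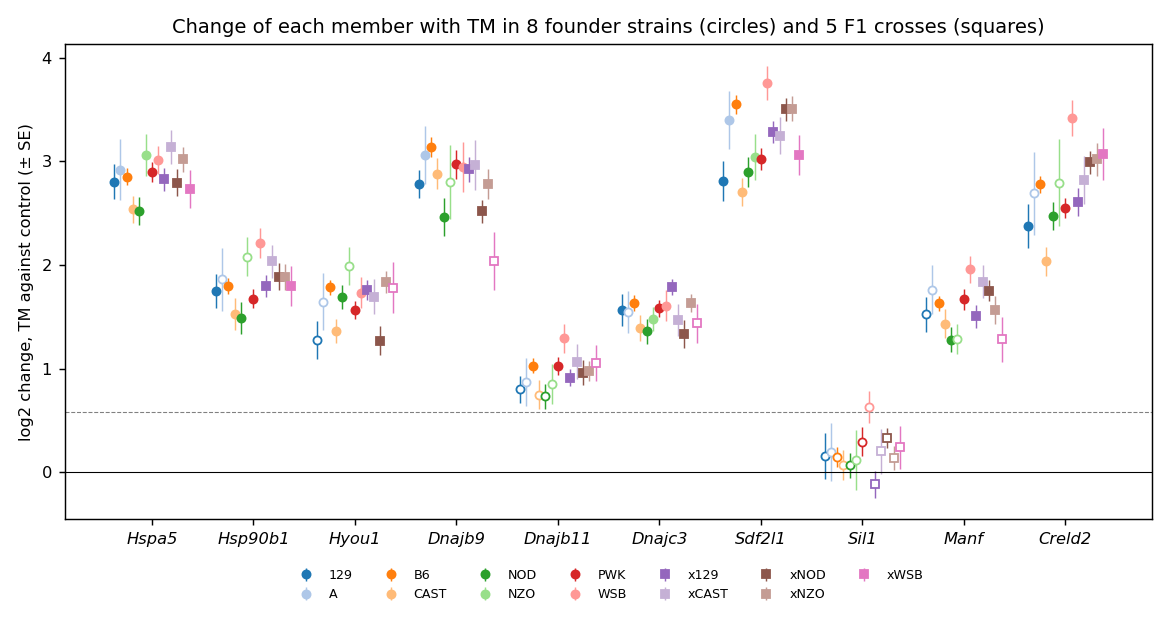
The log2 change with TM (y axis, ± SE) of each of the 10 members (x axis) in 8 founder strains (circles) and 5 F1 crosses (squares), filled where limma called the gene induced, with a dashed line at 1.5 fold. Sdf2l1, Dnajb9, Hspa5 and Creld2 lie at the top, Dnajb11 lies near 1, and Sil1 lies between -0.12 and 0.33 in each genotype except WSB (0.63).

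Within single genotypes, limma called 55 of the 80 pairs of a member and a founder strain, and 40 of the 50 pairs of a member and a cross. By strain it called 9 members in B6, PWK and WSB, 8 in CAST and NOD, 6 in 129, and 3 in A and NZO. Hspa5 and Sdf2l1 were among those called in each strain. The share of all genes called in the same tests was 5.04% in B6, 6.36% in PWK, 2.85% in WSB, 2.54% in CAST and 1.45% in NOD. It was 0.315% in 129, 0.346% in A and 0.32% in NZO. The 17 uncalled pairs other than those of Sil1 had changes of at least 1.66 fold and adjusted p between 0.0101 and 0.142. The median residual SD over genes (log2) was 0.10 in B6, while 129 and NZO each had 0.24 and A had 0.35. Single libraries set the count in several strains. In 129 it was 0 without control replicate 2, control replicate 3 or TM replicate 2, where 0 or 1 of all genes were induced, and 9 without TM replicate 3, where 249 were, against 40 with all libraries. In NZO it was 9 without TM replicate 3, where 1289 of all genes were induced against 41 with all libraries, and 0 without any one of the other 4, where 0 or 1 were. In A it was 4 without control replicate 1, where 32 of all genes were induced against 44 with all libraries. It was 2 there without control replicate 2 or 3, where 21 and 24 were, and 1 without any one TM library, where 5 to 16 were. In NOD it was 5 without TM replicate 3, where 37 of all genes were induced against 185 with all libraries. With no trend of the prior variance on level, 30 of the 80 pairs were called. With 1 fit over all 40 founder libraries, the 9 members other than Sil1 were called in each of the 8 strains (72 of 80 pairs), where 3.26% of all pairs of a gene and a strain were called.

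In the crosses, 9 members were called in x129, xCAST, xNOD and xNZO, and 4 in xWSB. The share of all genes called was 4.88% in x129, 2.52% in xCAST, 3.69% in xNOD, 1.44% in xNZO and 0.185% in xWSB. In xWSB the deviations of all 3 same-numbered control and TM pairs were correlated over 0.1, and with the number as a block 2 members were called there, Hspa5 and Sdf2l1. Without the block, the 4 called in xWSB were Hspa5, Hsp90b1, Sdf2l1 and Creld2, and its median residual SD was 0.31, against 0.16 to 0.20 in the other crosses. In xWSB the count was 1 without control replicate 2 and 2 without control replicate 3 or TM replicate 2. There 4, 9 and 5 of all genes were induced, in that order, against 23 with all libraries. In xNOD the count was 4 without any one of the 3 controls, where 13 to 19 of all genes were induced against 460. With 1 fit over the 28 F1 libraries, the same 9 members were called in all 5 crosses, where 3.39% of all pairs of a gene and a cross were called.

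Hspa5, the lumenal Hsp70, had the smallest ratio of highest to lowest fold in the high group, 1.45 over the strains and 1.32 over the crosses. Its mean change was 2.82 ± 0.067 (SE) on the log2 scale over the strains and 2.90 ± 0.056 (SE) over the crosses, and limma called it in all 13 genotypes. In A, where 1 control stood apart, the controls had 1587, 861 and 836 and the TM libraries 7198, 7750.5 and 8816, so that the groups did not overlap even with the high control. In CAST, with the lowest TM mean, the controls had 978 and 832 and the TM libraries 5318 and 5144. Over the founder set the lowest TM library (129) had 5106 and the highest control, in A, 1587. Among the crosses the fold ran from 6.66 in xWSB to 8.80 in xCAST.

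Hsp90b1, the Hsp90 paralog of the ER lumen, changed by 1.80 ± 0.072 (SE) over the strains and by 1.88 ± 0.059 (SE) over the crosses. Its fold was lowest in NOD (2.80), from 1059.7 ± 263 (SD, n = 2) to 2927 ± 79.98 (SD, n = 3), and highest in WSB (4.64), from 889 ± 163 (SD, n = 2) to 4089 ± 187 (SD, n = 3). It was not called in A (adjusted p = 0.0275) or NZO (adjusted p = 0.0101). Per kilobase of GENCODE M21 exon, the B6 controls had 206 CPM for Hspa5 and 228 for Hsp90b1. With TM the same measure was 1483 for Hspa5 and 793 for Hsp90b1, and the next highest was Creld2 at 253. In CPM not divided by length, these 2 chaperones made up a median of 72.5% of the summed signal of the 10 members in founder controls. With TM it was 81.2%. Longer genes weigh more in these shares.

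Hyou1, the large Hsp70 that also acts as an exchange factor for Hspa5, changed by 1.63 ± 0.065 (SE) over the strains and 1.67 ± 0.078 (SE) over the crosses. Its TM mean was lowest in 129, with 441, 557 and 631 in the 3 TM libraries against 221 and 223 in the controls. In A the TM libraries had 899, 655 and 1125, the widest spread among the founder strains for this gene. In the crosses its fold was lowest in xNOD (2.41) and highest in xNZO (3.57), and in xWSB, with 477, 740.2 and 929 in the TM libraries, it was not called (adjusted p = 0.0182).

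Among the J domain proteins, Dnajb9 (ERdj4) rose most, Dnajc3 (p58IPK) came next, and Dnajb11 (ERdj3) rose least. Per kilobase of exon, Dnajb9 had the lowest level of the 10 members in B6 controls, 6.18 CPM, and 54.6 with TM. Its values not divided by length were between 11.5 and 27.3 in the 18 founder controls, and between 64.9 and 183 in the 22 TM libraries. In B6 the controls had 17.03 and 14.5 and the TM libraries 141 and 137, a change of 3.14 ± 0.10 (SE) with adjusted p = 2.73e-13 (limma). In NZO the TM libraries had 142, 135 and 64.9, and the gene was not called (adjusted p = 0.0226). In xWSB the controls had 13.4, 14.4 and 18.9 and the TM libraries 95.1, 57.4 and 46.7, which gave the lowest fold of the 13 genotypes (4.09), not called at adjusted p = 0.0177.

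Dnajc3 had the narrowest range over the founder strains, from 2.56 fold in NOD to 3.10 fold in B6, and a mean change of 1.52 ± 0.044 (SE). It was called in 7 of the 8 strains and in 4 of the 5 crosses. In PWK it went from 150.1 ± 6.94 (SD, n = 3) to 449 ± 8.92 (SD, n = 3), and in A, the strain without a call, from 153 ± 20.1 (SD, n = 3) to 447 ± 59.4 (SD, n = 3) (adjusted p = 0.0123). Dnajb11 changed by 0.92 ± 0.053 (SE) and was called in 3 strains, B6, PWK and WSB. Its controls in WSB had 81.9 and 85.6 and its TM libraries 189, 205 and 224, against 98.1 and 77.2 and 143 and 149.8 in CAST. In the crosses Dnajb11 was called in 4 of 5, and its fold ran from 1.88 fold in x129 to 2.10 fold in xCAST.

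Sdf2l1, the small partner of the J domain proteins, had the largest mean fold of the group in both sets, and was called in all 13 genotypes. The controls had 11.6 and 11.7 in CAST, 11.8, 11.8 and 10.8 in PWK and 11.5 and 10.7 in B6, against 18.4 and 19.3 in 129. The TM libraries had 71.5 and 82.2 in CAST and 103, 83.4 and 96.8 in PWK, against 185, 166 and 201 in WSB and 140.2, 260.5 and 173 in A. All TM values of CAST and PWK were therefore below all TM values of WSB and A. 129 and B6 had the same TM mean to within their spread, 134 ± 26.8 (SD, n = 3) and 132 ± 2.17 (SD, n = 2), from unlike control means, so that the fold was 7.001 in 129 and 11.7 in B6. In WSB the change was 3.76 ± 0.17 (SE), 13.5 fold.

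**Figure D2:**
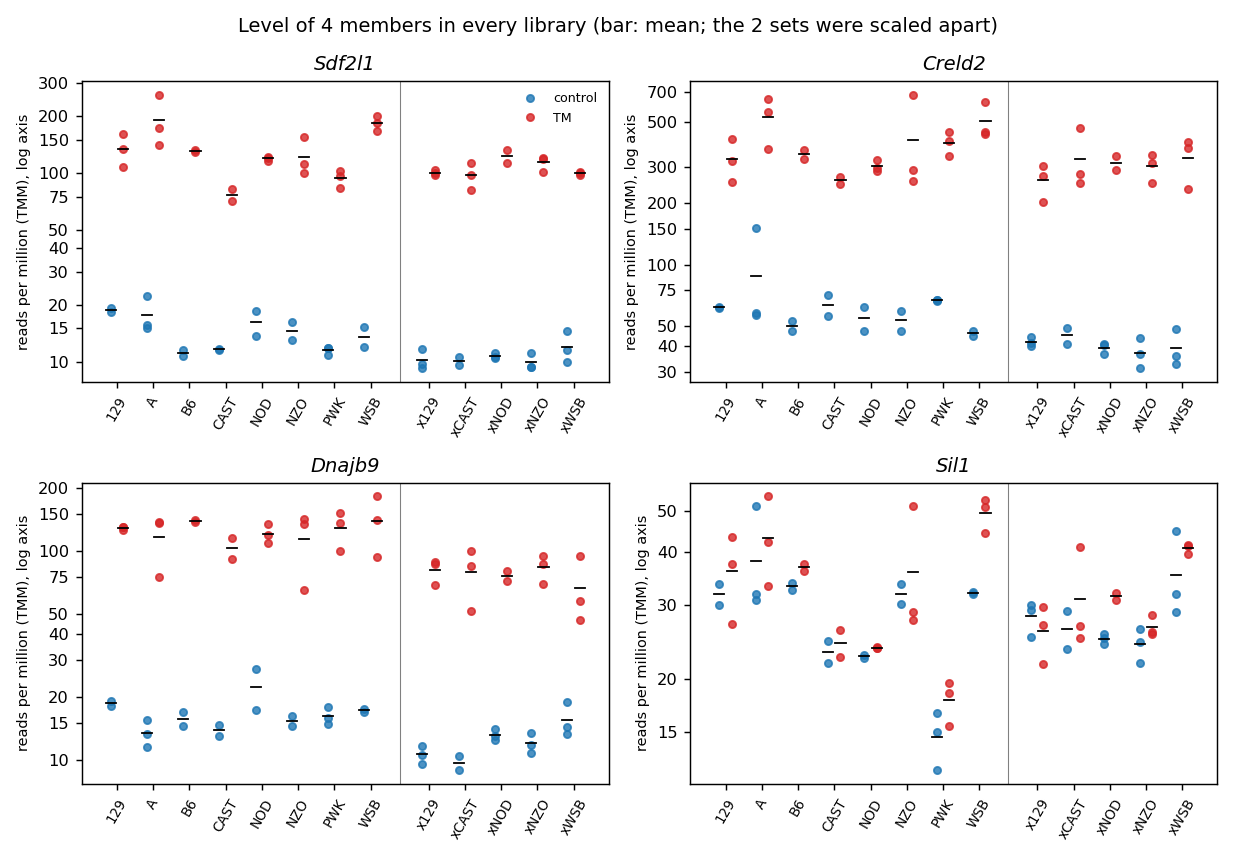
The value (y axis, CPM, log scale) of Sdf2l1, Creld2, Dnajb9 and Sil1 in each control (blue) and TM (red) library of the 13 genotypes (x axis), with bars at group means and the founder and F1 sets, which were scaled apart, on either side of the line. The controls and TM libraries separate in each genotype for Sdf2l1, Creld2 and Dnajb9. For Sil1 they separate in B6, NOD, WSB and xNOD, where the change did not pass the test.

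Sil1, the exchange factor of Hspa5, was the one member whose level did not pass the test with TM in any genotype, by limma or by edgeR, and WSB and xNOD were the 2 genotypes with an unadjusted p under 0.05. Its mean change was 0.21 ± 0.08 (SE) over the strains (adjusted p = 0.0291, limma) and 0.16 ± 0.077 (SE) over the crosses (adjusted p = 0.0935). In WSB the controls had 32.1 and 31.9 and the TM libraries 44.5, 51.2 and 53.1, a change of 0.63 ± 0.16 (SE) with adjusted p = 0.0217. In B6 (33.8 and 32.6 against 37.5 and 36.2), NOD (22.5 and 22.8 against 23.9, 23.7 and 23.7) and xNOD the TM libraries were also above the controls, by 1.11, 1.05 and 1.26 fold. The adjusted p (limma) was 0.246 in B6, 0.79 in NOD and 0.0424 in xNOD. The share of all genes that separate in this way is not given, so no rise of Sil1 is read from it. Sil1 had the lowest adjusted p of the members in the test of control levels among strains. Control means ran from 14.6 ± 2.23 (SD, n = 3) in PWK through 22.6 ± 0.255 (SD, n = 2) in NOD and 23.2 ± 2.00 (SD, n = 2) in CAST to 31.9 ± 2.48 (SD, n = 2) in NZO, 31.9 ± 2.58 (SD, n = 2) in 129, 32.0 ± 0.161 (SD, n = 2) in WSB, 33.2 ± 0.853 (SD, n = 2) in B6 and 38.0 ± 11.6 (SD, n = 3) in A. PWK lay below all other strains, NOD and CAST did not differ beyond their spread, and neither did the 5 highest. Without A control replicate 1 (51.4), the A controls had 30.9 and 31.8. The paper, unlike the tests here, names Sil1 as an example of its genes upregulated in all 8 strains. The paper's rule was at least 1.5 fold at an FDR of 1%. Here the fold of Sil1 ran from 1.05 in CAST to 1.54 in WSB. The source of this difference was not tested.

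Manf, a secreted co-factor that binds Hspa5, changed by 1.57 ± 0.056 (SE) over the strains and by 1.59 ± 0.072 (SE) over the crosses, and was called in 5 strains and 4 crosses. Its controls were alike, between 77.3 in WSB and 97.9 in NOD on average, while its TM libraries in A had 266, 407 and 265 and in CAST 216 and 237. In WSB the change was 1.96 ± 0.13 (SE), and in NOD 1.28 ± 0.12 (SE).

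Over the founder strains, Creld2 had the widest range of change among the members, from 4.10 fold in CAST to 10.7 fold in WSB. The CAST controls had 71.0 and 56.0 and the TM libraries 248 and 269.9, and the WSB controls had 47.5 and 45.0 and the TM libraries 445, 438 and 627. The lowest WSB value with TM was above the highest in CAST, NOD, B6 and 129. In A (151, 56.8 and 58.1 in controls, 369.6, 559.6 and 648 with TM) and in NZO (292, 256 and 678 with TM) the spread was wide and the gene was not called, with adjusted p = 0.0208 and 0.0344. In the crosses it was called in all 5, from 6.09 fold in x129 to 8.42 fold in xWSB, a ratio of 1.38, while Dnajb9 had the widest range over the crosses, a ratio of 1.91.

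Differences among the strains in the size of the change were tested next. WSB had the largest change for 6 of the 10 members (Hsp90b1, Dnajb11, Sdf2l1, Sil1, Manf and Creld2) and NOD the smallest for 6 (Hspa5, Hsp90b1, Dnajb9, Dnajb11, Dnajc3 and Manf), as a count with no test. The 10 members share the libraries, so these counts are not independent. With log2(TM/median control) of the 22 founder TM libraries in a moderated F test (limma), 1 member passed, Hsp90b1 (adjusted p = 0.00389), where 3.46% of all genes passed. Sdf2l1 (0.0196), Manf (0.0319), Hspa5 (0.0471) and Dnajb11 (0.0493) had adjusted p under 0.05 in the same test. That test sets each TM library against 1 control median per strain and so leaves the spread of the controls out. The strain by treatment interaction, which holds that spread, called 0 of the 10 members at an FDR of 1% and 0.174% of all genes, and the lowest adjusted p was 0.77, for Sdf2l1 (unadjusted p = 0.0133, the 1 member under 0.05). Without A control replicate 1 and NZO TM replicate 3, the F test called 4 members, Hsp90b1 (adjusted p = 0.000591), Dnajb11 (0.00241), Creld2 (0.00642) and Sdf2l1 (0.00833), and the lowest adjusted p of the interaction was 0.113, for Creld2. The F test called 0 members without CAST TM replicate 3, NOD control replicate 1, any one NOD TM library or WSB TM replicate 1, and 4 without NZO TM replicate 3 alone. It called 2 without A TM replicate 1 or NOD control replicate 3, and 3 without A TM replicate 2.

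Levels were compared in the same way. Among the 18 founder controls, 1 member differed by strain, Sil1 (adjusted p = 0.000215, limma), while 35.8% of all genes did. Without A control replicate 1 there were 3, with Sdf2l1 and Hyou1 added, where 48% of all genes differed. Without NOD control replicate 3 there were also 3, with Sdf2l1 and Dnajb9 added. Among the 22 TM libraries 3 members differed, Sil1 (adjusted p = 0.000206), Sdf2l1 (0.00049) and Hspa5 (0.00893), while 37.3% of all genes did. Without NZO TM replicate 3 there were 6, with Creld2, Hsp90b1 and Dnajb11 added, where 42% of all genes differed. There were 4 without A TM replicate 2 (Hyou1 added), and 2, Sdf2l1 and Sil1, without any one of 17 of the other 20 TM libraries. Without A TM replicate 2, 44% of all genes differed. Without 1 of those 17, where the strain kept at least 2 TM libraries, 32.3% to 39.3% of all genes did. With the replicate number as a term shared across strains, 2 members differed in controls (Sdf2l1 and Sil1), where 39.6% of all genes did. With that term the same 3 members as in the main test differed with TM, where 37.8% of all genes did. Sil1 TM means ran from 17.9 in PWK to 49.6 in WSB, and Sdf2l1 TM means from 76.9 in CAST to 191 in A.

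The same tests were run among the crosses. The F test (limma) of the change called 0 of 10 members, where 0.531% of all genes passed, and the interaction called 0, where 0.0547% of all genes passed. In the F test Dnajc3 had the lowest unadjusted p (0.0378) and was the 1 member under 0.05, and in the interaction Dnajb9 was (0.0459). TM levels differed for 0 members, or 1 without xCAST TM replicate 3, against 29.5% of all genes. Sil1 was the 1 member under an unadjusted p of 0.05, and Sil1, Dnajc3 and Hyou1 had the lowest adjusted p (0.0306, 0.115 and 0.173). Control levels differed for 1 member, Hspa5 (adjusted p = 0.00938), against 21.4% of all genes. Its controls had 816, 813 and 934 in xWSB, 675, 649 and 734 in x129, 662, 666 and 599 in xNOD, 668, 638 and 577 in xNZO and 632 and 615 in xCAST, so that xWSB lay above the other crosses in each library. The other 9 did not pass. The call of Hspa5 was lost without any one of 12 of the 14 control libraries, all but xNZO control replicate 3 and xWSB control replicate 1, and with the replicate number as a shared term (adjusted p = 0.0166), where Dnajb9 passed instead (0.00923).

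The sets were scaled apart, so crosses and their parents are set side by side by their own changes with no test. For x129 the change of 7 members lay between those of B6 and 129, and for xNZO that of 8 members lay between those of B6 and NZO. For xCAST, 6 members had a larger change than either parent and 4 lay between them. Sdf2l1 changed by 9.497 fold in xCAST beside 11.7 in B6 and 6.53 in CAST, and Hspa5 by 8.80 fold in xCAST beside 7.22 in B6 and 5.80 in CAST. For xWSB, 5 members had a smaller change than either parent and 5 lay between them. Dnajb9 changed by 4.09 fold in xWSB beside 8.82 in B6 and 7.70 in WSB, and Manf by 2.43 fold in xWSB beside 3.09 in B6 and 3.89 in WSB. Creld2, with the highest fold among the founders in WSB, changed by 8.42 fold in xWSB beside 6.86 in B6 and 10.7 in WSB. For xNOD, 4 members lay above both parents, 4 between them and 2 below.

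Among TM libraries of 1 genotype, replicate 3 was below its group mean for Dnajb9 in 11 of the 12 genotypes that have one, and for Dnajc3 in 9. It was above that mean for Hyou1 and Dnajb11 in 11, for Creld2 in 10 and for Sdf2l1 in 9. It was also above it for Hspa5 and Hsp90b1 in 8, for Sil1 in 7 and for Manf in 6. Tested as a term shared across strains in the 22 founder TM libraries (limma), the replicate number did not pass for any member, with the lowest adjusted p for Dnajb9 (0.11). That term passed for 0 of the 13197 genes tested, and the counts above are not given for all genes. The pair with opposite signs and the widest spread, Creld2 and Dnajb9, is given in full. It was picked from these same deviations, so the counts that follow are a description and not a test. How often they would arise without any link was not worked out. In 6 of the 8 founder strains (A, CAST, NOD, NZO, PWK and WSB) and in 4 of the 5 crosses (x129, xCAST, xNOD and xWSB), the TM library with the most Creld2 was the one with the least Dnajb9. In NZO the TM libraries had 292, 256 and 678 for Creld2 and 142, 135 and 64.9 for Dnajb9, a ratio of Creld2 to Dnajb9 of 2.05, 1.90 and 10.5. In xCAST they had 278, 249.8 and 464 for Creld2 and 85.1, 101 and 51.7 for Dnajb9, a ratio of 3.27, 2.49 and 8.99. Over all TM libraries the ratio ran from 1.90 to 10.5 in the founder set and from 2.29 to 8.99 in the F1 set. The highest ratio of a genotype was in TM replicate 3 in 6 of the 8 strains and in all 4 crosses with such a library, and not in B6 (2.58 in replicate 1 and 2.39 in replicate 3) or 129, with 3.16, 2.56 and 1.94 in replicates 1, 2 and 3. A control replicate 1 had a ratio of 13.1, against 3.66 and 4.36 in the other A controls. The SD of the deviations from the group mean (log2, 22 founder TM libraries) was 0.39 for Dnajb9 and 0.38 for Creld2, 0.28 for Sil1, 0.25 for Sdf2l1 and 0.23 for Hyou1, and between 0.12 (Dnajc3) and 0.18 (Manf) for the other 5. The highest ratio was in the deepest TM library in 6 of the 11 genotypes whose TM depths were all recovered. The part of depth in these ratios was not tested.

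**Figure D3:**
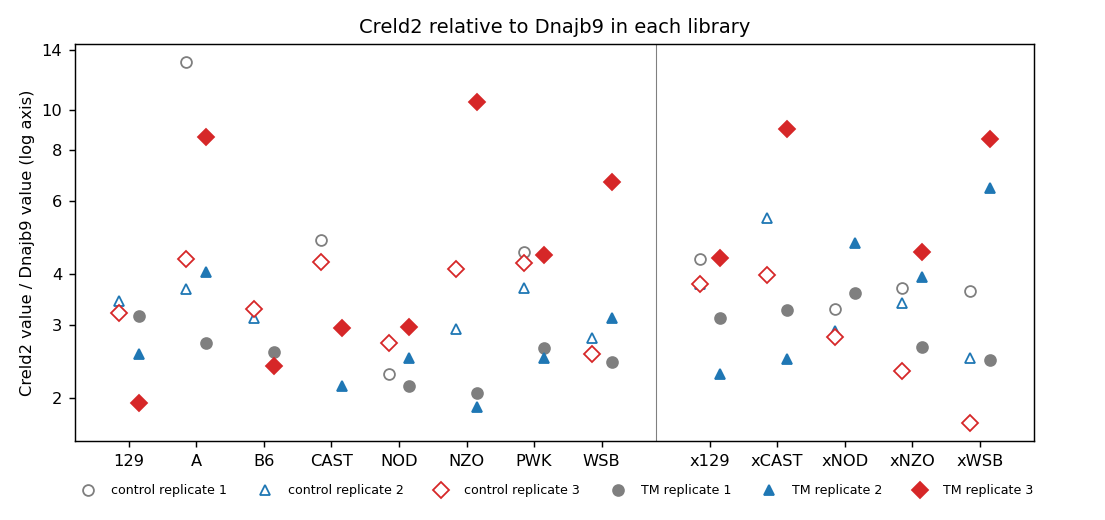
The ratio of the Creld2 value to the Dnajb9 value (y axis, log scale) in each control (open) and TM (filled) library of the 13 genotypes (x axis), with the shape and color giving the replicate number. TM replicate 3 (filled red diamonds) is the highest TM library in 6 of 8 strains and in the 4 crosses that have one, and A control replicate 1 has the highest ratio of all, 13.1.

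The other genes of the same and of neighbouring pathways were described by lists. Over the founder strains 6.04% of all genes rose. Among 13 other genes of the ER Hsp70 machinery, 1 rose, Ficd (1.61 fold), the enzyme that adds AMP to Hspa5. Their median mean change was 0.35 on the log2 scale, against 1.71 for the 10 members and -0.037 for all genes tested. Sec63, a J domain protein of the translocon, came to 0.53 ± 0.042 (SE), below the fold limit, and the lowest were Dnajb14 (-0.32 ± 0.10 (SE)) and Dnajb12 (-0.16 ± 0.056 (SE)), J domain proteins of the ER membrane. Among 13 lectin chaperones and foldases 6 rose (median 0.53), with the disulfide isomerases Pdia4 (3.01 fold) and Pdia6 (2.12 fold) the highest. The lowest of that list were the prolyl isomerase Fkbp10 (-0.25 ± 0.039 (SE)) and Txndc5 (-0.12 ± 0.034 (SE)).

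In other compartments, of 15 cytosolic and mitochondrial counterparts (median -0.032), 1 rose and 2 fell, where 6.04% of all genes rose and 5.41% fell. The one that rose was the mitochondrial Hsp70 Hspa9 (1.54 fold). The stress-inducible cytosolic Hsp70 genes Hspa1b and Hspa1a, near-identical copies whose reads can be split between them, fell, by 1.04 and 0.85 on the log2 scale. Hsp90aa1, a cytosolic Hsp90, came to 0.37 ± 0.058 (SE), and the other cytosolic Hsp90 of the list, Hsp90ab1, to -0.032 ± 0.055 (SE). Of 12 UPR regulators 3 rose (median 0.34): Ddit3 (CHOP, 14.9 fold), Atf4 (2.31 fold) and Xbp1 (2.27 fold), all transcription factors. The lowest were Nfya (-0.25 ± 0.053 (SE)), a subunit of the factor that binds CCAAT, and the protease Mbtps1 (-0.20 ± 0.05 (SE)). In the F1 set the counts were the same for all 4 lists (1, 6, 1 and 3 that rose, and 2 cytosolic genes that fell). Of all genes there, 4.95% rose and 5.54% fell. With a pseudocount of 1, neither Ficd nor Hspa1a passed the fold limit in the F1 set. Xbp1 was named after its value was seen, to complete the count of 3, and Hsp90ab1 likewise, to stand beside Hsp90aa1.

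**Figure D4:**
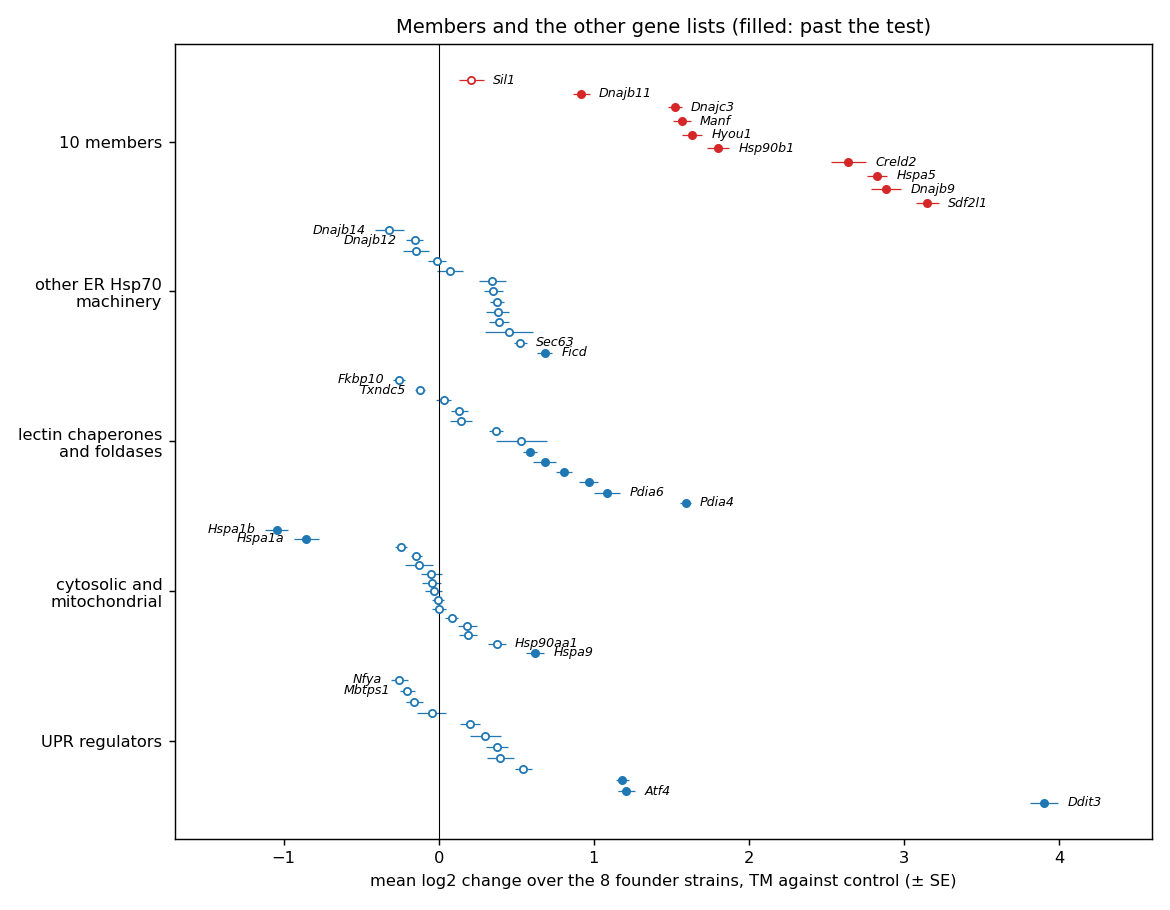
The mean log2 change over the 8 founder strains (x axis, ± SE) of the 10 members (red) and of the genes in 4 other lists (blue, rows), filled where limma called the gene. The members other than Sil1 lie between 0.92 and 3.15, and the highest of the other genes are Ddit3 at 3.90, Pdia4 at 1.59 and Atf4 at 1.21.

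Over the 40 founder libraries, the 5 genes whose log2 level was most like the mean of the 10 centred members were Ddit3 (Pearson r = 0.99), the ER degradation factor Herpud1 (0.98), 1810032O08Rik (0.98), the phosphatase subunit Ppp1r15a (0.98) and the transcription factor Nfil3 (0.98). Over the 28 F1 libraries the same genes had r = 0.98, 0.99, 0.98, 0.95 and 0.95. These values describe libraries that fall into a control and a TM cluster. Within the 22 founder TM libraries r was 0.93 for Ddit3, 0.72 for Herpud1, 0.80 for 1810032O08Rik, 0.69 for Ppp1r15a and 0.88 for Nfil3, and within the 18 controls it ran from -0.27 (Herpud1) to 0.68 (1810032O08Rik).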

How the data were processed

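RNA-seq libraries (single-end 100-base reads, TruSeq) of MEFs were analysed. The submitters' processing notes name Trimmomatic and FastQC. The authors aligned reads with TopHat 1.4.1 to genomes rebuilt for each strain (GRCm38), dropped outlying libraries and scaled counts with edgeR's TMM. The deposited values are labelled FPKM, but their steps gave whole reads in 66 of 68 libraries: they are a signal in TMM-scaled CPM, not divided by length. The planned limma test was kept, and edgeR's quasi-likelihood test (4.0.16) on those reads was added. The depth is recovered from the same steps. In the F1 tables, 3 lines that name no gene held 15.5% to 24.1% of the values and were left out.

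Values were tested as log2(value + 0.1) with limma 3.58.1 (trended prior) in R 4.3.3, over genes at 0.5 or more in at least 2 libraries, so fold changes of low genes are understated. Induced means at least 1.5 fold at an FDR of 1% (Benjamini-Hochberg, two-sided), and tests among genotypes used the FDR alone. Each genotype was fitted alone, and means over strains or crosses in 1 fit per set. Simulated founder libraries were used to check the limma test of TM against control (in B6, NOD and A) and the mean over strains. They also served for the strain effect, the interaction and the TM level, with and without the replicate number. The edgeR test, the replicate block, the control level and the F1 set were not simulated. Alternatives tried: median-of-ratios scaling, a prior without trend, a pseudocount of 1, filters of none or of a mean of at least 2, 1 fit for all libraries, an FDR of 5%, a replicate block, and each library left out. For the block, the deviations of same-numbered control and TM libraries were correlated over genes: r ran from -0.53 to 0.31 over 29 pairs. Pairing asked for at least 3 pairs in a genotype, each over 0.1, which xWSB met (0.12 to 0.26), so that the pairing there comes from the data and not from the labels. Both pairs of NZO were over 0.1 too (0.19 and 0.22) but are fewer than 3. The study's methods say that genotypes and treatments were handled in parallel, so a fit with the number as a term shared across genotypes was added for the tests among genotypes.

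The members and lists were chosen with earlier results of these data known. The text names the members, the 2 highest and 2 lowest genes of each list by mean change, and the 5 genes most like the members, with Xbp1 and Hsp90ab1 added.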

Additional observations from a re-analysis of the deposited data

Results flagged for a closer look

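Hsp90b1 passed the F test of log2(TM/control) among founder strains, with an adjusted p of 0.00389 (limma, 22 TM libraries). Its change was lowest in NOD (2.80 fold) and highest in WSB (4.64 fold). Of all genes, 3.46% passed the same test, which takes the control median of each strain as known. The call was lost without any one NOD TM library and without WSB TM replicate 1. The strain by treatment interaction, which also holds the spread of the controls, gave an adjusted p of 1.00.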

How the results depend on the processing

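The count of member and strain pairs called induced, 55 of 80, was 30 with no trend in the prior variance, between 49 and 61 with any 1 library left out, and 62 without A control replicate 1 and NZO TM replicate 3, an alternative added after the data were seen. Other settings gave 54 to 56, apart from an FDR of 5% (71) and 1 fit for all libraries (72). In the crosses the count, 40 of 50, was 34 with no trend and between 35 and 41 with any 1 library left out. With the replicate block, 45 pairs were called against 38 in the 6 strains where it could be fitted (not B6 and CAST; in NZO 8 against 3, in 129 9 against 6, in A 2 against 3) and 37 against 40 in the crosses, while 9 members kept a mean change past the test in both sets. The 1 member with a strain effect became 0 in the interaction, 0 in the interaction with the replicate block, 3 when adjusted over genes induced in at least 1 strain, 4 without the 2 libraries, and 0 to 4 with 1 library left out. Control levels differed among strains for 1 member, for 1 to 3 with 1 library left out, for 3 without the 2 libraries and for 2 with the replicate block shared across genotypes, also added after the data were seen. TM levels differed for 3, for 2 to 6 with 1 library left out and for 6 without the 2 libraries. Among crosses, 1 library left out gave 0 to 1 for control levels and 0 to 1 for TM levels. The change of Sil1 turned sign with 1 library left out in CAST (-0.039 to 0.17), NZO (-0.17 to 0.27), xCAST (-0.018 to 0.35) and x129 (-0.22 to 0.0060). Apart from those 4, the other values of single members kept their direction. With 1 library left out, only the lowest and highest change of each member and genotype were counted. Among the values counted, 1289 stayed on their side of the threshold, 68 passed it and 49 lost it. The other leave-one-out fits are outside these totals, so not all losses given above for 129, NZO and xNOD are included. The causes of these shifts were not tested. With 2 or 3 libraries a group, precision is limited by the number of wells, and a lone library left in an arm was assumed to vary like the other arm.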
